A study of Mus musculus with 8 samples.

Results

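Fatty acids are the main fuel of a slow muscle at rest, and 34 genes that carry them from the blood vessel to the mitochondrial beta-oxidation spiral were examined in soleus muscle of Ts65Dn mice, a model of Down syndrome. The genes were chosen by name and split by role into uptake (7 genes), lipid droplet (4), carnitine shuttle (6), beta-oxidation (14) and regulators (3). Each gene was read from the brightest, over the 8 arrays, of the probe sets annotated to exactly 1 gene symbol. Of the 34 genes, 32 were measured in this way, out of 19938 genes in all. Cpt1b, the muscle form of carnitine palmitoyltransferase I, shares its probe set with another symbol, and Acsl1, an acyl-CoA synthetase, matched no probe set by symbol, so neither was analysed here.

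Soleus muscles came from 4 male Ts65Dn mice and 4 male wild-type mice labelled B6EiC3SnF1/J, a mixed B6 and C3H background, all aged 5 months, in the basal state, with 1 array for each labelled biological replicate. Ts65Dn mice carry an extra chromosome with distal mouse chromosome 16 and the centromeric end of chromosome 17, so the genes there are present in 3 copies, and some of those on chromosome 17 have no counterpart on human chromosome 21. None of the 34 genes lies in those segments. Eci1, Ppard, Angptl4 and Plin5 are on chromosome 17, beyond the trisomic end, and 0 are on chromosome 16. Values are log2 RMA values, so that a difference of 1 is a doubling of signal. They were read within a gene only, since the brightness of different probe sets cannot be compared.

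As background, lipoprotein lipase frees fatty acids from circulating triglyceride, Cd36 and fatty acid transport proteins bring them across the membrane, and small binding proteins carry them in the cytosol. They are stored in droplets coated by perilipins and released by lipases, or enter mitochondria through the carnitine shuttle, whose first step is inhibited by malonyl-CoA. Inside, acyl-CoA dehydrogenases, hydratases, hydroxyacyl dehydrogenases and thiolases shorten the chain, and electrons pass through the electron transfer flavoprotein to the respiratory chain. PPAR alpha and PPAR delta are nuclear receptors for fatty acids that drive many of these genes.

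No member differed between the groups at the threshold used. By limma, with Benjamini-Hochberg adjustment over all 19938 genes, 0 of 32 members were called at an adjusted p under 0.05, while 5.26% of all genes were, 2.32% higher and 2.94% lower in Ts65Dn. The direction of those calls depended on the scaling, with 462 higher and 587 lower as deposited and 951 higher and 57 lower after median centring, which moved the median fold change of all genes from -0.10 to 0.10. At an unadjusted p under 0.05 there was 1 of 32 members, Plin2, beside 34.8% of all genes. The adjusted p-values of the members ran from 0.0744 to 0.958. Over all genes the smallest limma adjusted p was 0.0449, so every call lay just under the threshold of 0.05. A p above the threshold does not show that levels were equal, and the 95% intervals give the range that these arrays leave. For 24 of 32 members the whole interval lay inside a change of 1.5-fold in either direction (0.585 on the log2 scale), as it did for 8942 of the 19938 genes. The other 8 intervals reached further, and the widest was that of Ucp3.

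The arrays themselves differed in range. Column medians ran from 4.23 to 4.29 in Ts65Dn and from 4.37 to 4.56 in wild type, and interquartile ranges from 3.01 to 3.12 and from 2.62 to 2.93. Wild-type arrays 2 and 3 had the narrowest ranges, 2.74 and 2.62, with bright genes low on them relative to the other arrays. Further values are given beside the fold changes. The first is the median log2 fold change of the 100 genes nearest to a member in mean level (genes of like level, members left out), with a level-matched fold change in which their shift is subtracted in each array. The second is the fold change without wild-type arrays 2 and 3. The median log2 fold change was 0.08 over the 32 members and -0.10 over all genes. Of the 1946 genes of like level to any member the median was 0.12. The level-matched median of the members was -0.01, with 16 positive and 16 negative, and without wild-type arrays 2 and 3 the median was -0.07.

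**Figure D1:**
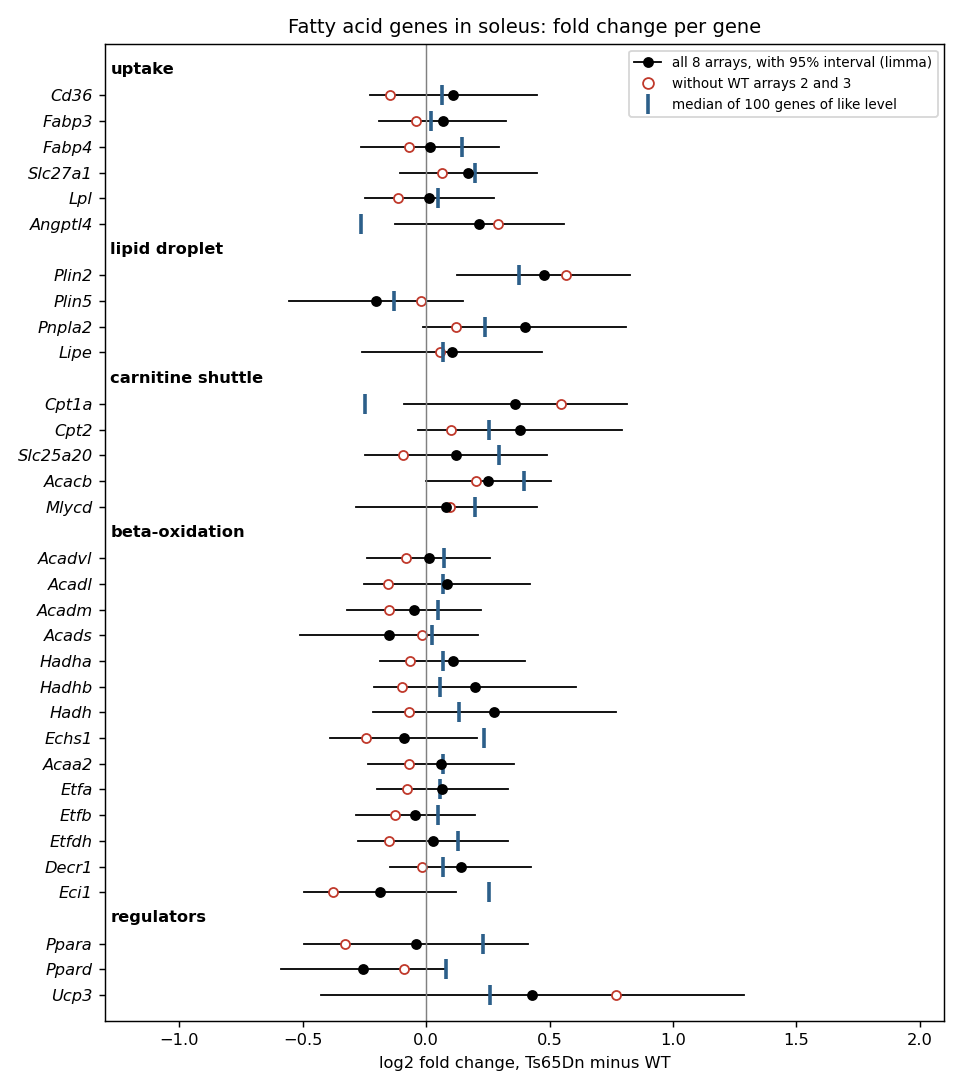
Log2 fold change (x axis, Ts65Dn minus wild type) of the 32 measured members (y axis, grouped by role) from all 8 arrays with 95% limma intervals (black), without wild-type arrays 2 and 3 (open red) and the median of the 100 genes of like level (blue tick). The interval of Plin2, from 0.13 to 0.83, is the only one that leaves out 0. All 14 open points of the beta-oxidation genes lie below 0, against 49.28% of genes of like level. Their wild-type side is arrays 1 and 4 only, on which the median of this class is highest.

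Among the genes of uptake, all 6 measured fold changes were above 0, as were 60.94% of genes of like level, and none was called. With level matching 2 of the 6 were below 0, and without wild-type arrays 2 and 3, 4 of the 6. Cd36, the membrane translocase for long-chain fatty acids, was at 10.83, 10.85, 10.92 and 10.89 in the Ts65Dn arrays and at 10.95, 10.56, 10.45 and 11.09 in the wild-type arrays. The Ts65Dn values lay inside the wild-type range, and the wild-type SD was 0.30 against 0.04 in Ts65Dn (n = 4 each). The log2 fold change was 0.11, with a 95% interval from -0.23 to 0.45 and a limma adjusted p of 0.615. Without wild-type arrays 2 and 3 it was -0.15.

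Lpl, the lipase that frees fatty acids at the vessel wall, was at 11.22, 11.29, 11.29 and 11.21 in Ts65Dn and at 11.38, 11.19, 11.03 and 11.35 in wild type. Again the Ts65Dn values lay within the wild-type range, and the log2 fold change of 0.01 had an interval from -0.25 to 0.27 (adjusted p = 0.947 by limma). Fabp3, the cytosolic binding protein of heart and muscle, had a log2 fold change of 0.07 with an interval from -0.19 to 0.32, and its 2 probe sets gave 0.01 and 0.07. Fabp4, the binding protein of fat cells and capillary endothelium, had one of 0.02 with an interval from -0.27 to 0.30. Slc27a1, a fatty acid transport protein, stood at 0.17, close to the 0.20 of its genes of like level.

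Angptl4, a secreted inhibitor of lipoprotein lipase, had the largest level-matched value of this class. Its values were 5.08, 4.89, 5.36 and 4.94 in Ts65Dn and 4.68, 4.67, 5.19 and 4.87 in wild type. Each Ts65Dn array lay above 3 of the wild-type arrays, and wild-type array 3 overlapped them. Its log2 fold change was 0.22 (adjusted p = 0.330 by limma), while the genes of like level had a median of -0.26. The level-matched log2 fold change was 0.44, with an unadjusted limma p of 0.00781 and an adjusted p of 0.113. It did not pass on either scale.

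Of the 4 lipid droplet genes, Plin2 had the smallest p of all members. Plin2, or adipophilin, coats droplets in most cells and is known to follow the amount of stored lipid. It was at 8.01, 7.80, 8.36 and 8.25 in Ts65Dn and at 7.65, 7.91, 7.53 and 7.43 in wild type. In 3 of 4 Ts65Dn arrays it lay above every wild-type array, and Ts65Dn array 2 lay below wild-type array 2. The mean difference was 0.48 on the log2 scale, a 1.39-fold difference, with an SE of 0.16, an unadjusted limma p of 0.0124 and an adjusted p of 0.0744. Genes of like level had a median of 0.37, so that the level-matched value was 0.15 (adjusted p = 0.702 by limma). Centring the arrays on their medians gave 0.68, which passed with a limma adjusted p of 0.0403. Without wild-type arrays 2 and 3 it was 0.57.

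The promoter window of Plin2 is shown because this member came nearest to the threshold, and it was chosen after its values were seen. It covers 250 bases before and 50 after the annotated start, from RefSeq on build GRCm38.p6, at chr4:86670010-86670309 on the minus strand, written 5′ to 3′. Capitals mark the core site of nuclear receptors such as the PPARs, here on the opposite strand, whose first base is at position -218.
Plin2: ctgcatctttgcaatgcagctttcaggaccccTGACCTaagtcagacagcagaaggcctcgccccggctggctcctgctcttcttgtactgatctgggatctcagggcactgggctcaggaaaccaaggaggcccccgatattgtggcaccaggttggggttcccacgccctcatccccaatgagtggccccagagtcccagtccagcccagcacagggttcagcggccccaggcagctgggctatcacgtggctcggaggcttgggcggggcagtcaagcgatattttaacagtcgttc
The core site searched was AGGTCA, on both strands. It was present in 10 of 33 promoter windows of the members, or 30.3%, and in 16.3% of all 32851 windows. These 10 windows belonged to 9 members, Acadm, Plin2, Cd36, Acacb, Ucp3, Echs1, Acadvl, Plin5 and Cpt1a. The full PPAR and RXR element, AGGTCANAGGTCA, which holds the core site at either end, was found in 0 of the 33 windows and in 0.0396% of all windows. A match of letters is a description of the sequence and not a bound site. Of the 34 genes 28 had a window, and Fabp4, Lpl, Angptl4, Cpt1b, Acaa2 and Decr1 had none in the table used.

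Pnpla2, the adipose triglyceride lipase that takes the first fatty acid from stored triglyceride, was at 9.03, 8.93, 8.97 and 9.34 in Ts65Dn and at 8.78, 8.55, 8.23 and 9.12 in wild type. Only Ts65Dn array 4 lay above the wild-type range. Its log2 fold change was 0.40 with an interval from -0.01 to 0.81 (adjusted p = 0.152 by limma), which was 0.12 without wild-type arrays 2 and 3 and 0.18 after level matching. Lipe, the hormone-sensitive lipase of the next step, had a log2 fold change of 0.10 (adjusted p = 0.664 by limma). Plin5, which holds droplets against mitochondria in oxidative tissue, was between 5.09 and 5.31 in Ts65Dn and at 5.21, 5.30, 5.87 and 5.22 in wild type. Wild-type array 3 alone stood above the rest, and the log2 fold change of -0.20 was -0.02 without wild-type arrays 2 and 3.

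**Figure D2:**
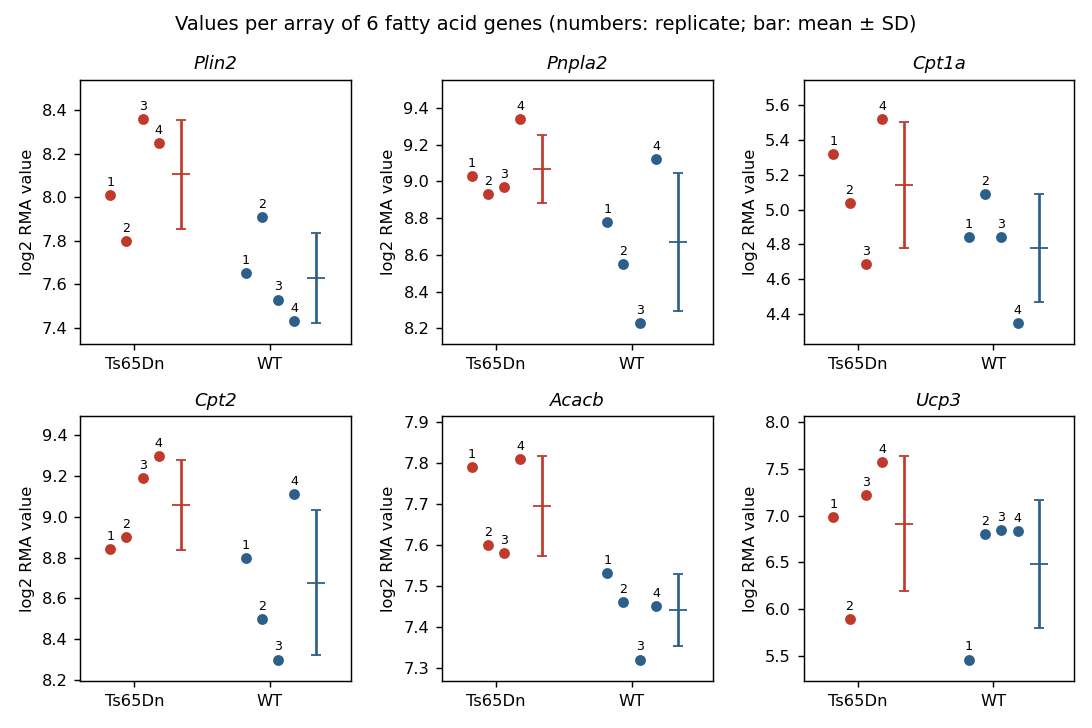
Log2 RMA values (y axis) of 6 members in each Ts65Dn and wild-type (WT) array, numbered by replicate, with the mean and SD of each group (n = 4) at the side. The groups are apart for Acacb only, and Ts65Dn array 4 is the highest array for Pnpla2, Cpt1a, Cpt2, Acacb and Ucp3.

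In the carnitine shuttle, all 5 measured fold changes were above 0, as were 69.6% of genes of like level, and none was called, with a median of 0.25 beside 0.21 for genes of like level. With level matching 3 of the 5 were below 0, and without wild-type arrays 2 and 3, 1 of the 5. Cpt1a, the liver form of the enzyme that commits fatty acids to mitochondrial entry, was at 5.32, 5.04, 4.69 and 5.52 in Ts65Dn and at 4.84, 5.09, 4.84 and 4.35 in wild type. The groups overlapped, with Ts65Dn array 3 below 3 of the wild-type arrays. The log2 fold change was 0.36 (95% interval from -0.09 to 0.81; adjusted p = 0.224 by limma), against a median of -0.25 for genes of like level. The level-matched value was 0.60, with an unadjusted limma p of 0.0128 and an adjusted p of 0.135.

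Cpt2, which reforms acyl-CoA inside the mitochondrion, was at 8.84, 8.90, 9.19 and 9.30 in Ts65Dn and at 8.80, 8.50, 8.30 and 9.11 in wild type. Ts65Dn arrays 3 and 4 lay above the wild-type range, and arrays 1 and 2 within it. The mean difference of 0.38 (adjusted p = 0.169 by limma) was 0.10 without wild-type arrays 2 and 3. Slc25a20, the carnitine and acylcarnitine exchanger of the inner membrane, lay between 8.11 and 8.24 in Ts65Dn and between 7.55 and 8.37 in wild type, with wild-type array 2 the lowest, and had a log2 fold change of 0.12.

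Acacb makes the malonyl-CoA that inhibits carnitine palmitoyltransferase I, and Mlycd breaks it down. Acacb was at 7.79, 7.60, 7.58 and 7.81 in Ts65Dn and at 7.53, 7.46, 7.32 and 7.45 in wild type. Every Ts65Dn array was above every wild-type array, the 1 such case among the 32 members, while 22.7% of all genes had groups that did not overlap. The log2 fold change was 0.25 with an interval from -0.0014 to 0.51 and a limma adjusted p of 0.145. Genes of like level had a larger median, 0.40, and the level-matched value was -0.11 and the quantile-normalized one -0.03, so its direction turned with the scaling. Mlycd had a log2 fold change of 0.08 (adjusted p = 0.739 by limma), which was 0.01 without Ts65Dn array 4.

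None of the 14 genes of beta-oxidation was called. Their log2 fold changes ran from -0.19 to 0.28 with a median of 0.04, 9 above and 5 below 0. For 12 of 14 the 95% interval stayed inside 1.5-fold, as it did for 475 of the 698 genes of like level. Acadvl, the very-long-chain acyl-CoA dehydrogenase of the inner membrane, had a log2 fold change of 0.01 (interval from -0.24 to 0.26). The long-chain and medium-chain dehydrogenases followed, Acadl with 0.08 (interval from -0.25 to 0.42) and Acadm with -0.05 (interval from -0.32 to 0.22). Acads, the short-chain dehydrogenase, had -0.15 (interval from -0.51 to 0.21).

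The electron transfer flavoprotein, which takes electrons from these dehydrogenases, and its oxidoreductase had values inside the wild-type range. Etfa was between 11.11 and 11.24 in Ts65Dn and between 10.93 and 11.28 in wild type (log2 fold change 0.07). Its partner subunit Etfb was between 11.18 and 11.26 against 11.17 to 11.41 (-0.05), and the oxidoreductase Etfdh between 9.73 and 9.90 against 9.49 to 10.01 (0.03). For all 3 the Ts65Dn range was the narrower. Their limma adjusted p-values were 0.711, 0.782 and 0.898.

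Hadha and Hadhb encode the alpha and beta subunits of the trifunctional protein, which carries out the last steps for long chains. The promoter window of Hadha is shown because the genes start close together in opposite directions and their windows overlap. The Hadha window is chr5:30154931-30155230 on the minus strand of GRCm38.p6, from RefSeq, and the Hadhb window is chr5:30155003-30155302 on the plus strand. The annotated starts lie 273 bases apart, and the windows share 228 bases, marked by capitals in the Hadha window written 5′ to 3′.
Hadha: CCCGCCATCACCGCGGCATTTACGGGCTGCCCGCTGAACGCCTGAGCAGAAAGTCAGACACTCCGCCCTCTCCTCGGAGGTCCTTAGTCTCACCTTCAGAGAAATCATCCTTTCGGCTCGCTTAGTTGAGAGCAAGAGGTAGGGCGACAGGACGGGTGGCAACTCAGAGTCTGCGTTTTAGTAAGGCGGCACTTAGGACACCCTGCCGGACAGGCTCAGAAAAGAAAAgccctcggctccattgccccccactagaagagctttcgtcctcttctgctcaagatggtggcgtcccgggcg
Hadha was at 10.80, 10.57, 10.76 and 10.79 in Ts65Dn and at 10.75, 10.49, 10.41 and 10.85 in wild type. Hadhb was at 10.65, 10.56, 10.61 and 10.62 in Ts65Dn and at 10.62, 10.38, 9.85 and 10.80 in wild type. In both genes wild-type array 3 was the lowest and wild-type array 4 the highest of all 8, with a wider gap for Hadhb. The same was so for Cd36, Acadl, Acadm, Acaa2, Etfa and Etfb, so it was not particular to this pair. The log2 fold changes were 0.11 (adjusted p = 0.573 by limma) and 0.20 (adjusted p = 0.447 by limma), and the 2 probe sets of Hadhb gave 0.20 and 0.20. With wild-type arrays 2 and 3 left out they were -0.07 and -0.10.

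Hadh, the hydroxyacyl-CoA dehydrogenase for shorter chains, was at 9.89, 9.48, 9.70 and 9.71 in Ts65Dn and at 9.83, 9.45, 8.70 and 9.69 in wild type. Wild-type array 3 lay far below the other 7, and the log2 fold change of 0.28 was -0.07 without wild-type arrays 2 and 3. Acaa2, the mitochondrial thiolase, and Decr1, the dienoyl-CoA reductase needed for polyunsaturated chains, had log2 fold changes of 0.06 and 0.14.

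Eci1 and Echs1 were the members lowest relative to genes of like level. Eci1, the enoyl-CoA isomerase needed for unsaturated fatty acids, was at 8.83, 8.74, 8.98 and 8.86 in Ts65Dn and at 9.15, 8.77, 8.94 and 9.32 in wild type. The groups overlapped, since wild-type array 2 was below 3 of the Ts65Dn arrays. Its log2 fold change was -0.19 (adjusted p = 0.341 by limma), beside 0.25 for genes of like level. After level matching it was -0.42, with an unadjusted limma p of 0.00445 and an adjusted p of 0.0961. Echs1, the short-chain hydratase, was at 8.90, 8.92, 8.93 and 8.65 in Ts65Dn and at 8.98, 8.83, 8.75 and 9.21 in wild type, with Ts65Dn array 4 the lowest. Echs1 had a log2 fold change of -0.09 (adjusted p = 0.637 by limma). Its level-matched value was -0.32, with an unadjusted limma p of 0.0113 and an adjusted p of 0.128. Centring the arrays on their medians gave both a value above 0, 0.01 and 0.11.

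The class was also described array by array. The median, over the 14 genes, of an array's distance from each gene's own mean was 0.07, -0.08, 0.07 and -0.01 in Ts65Dn arrays 1 to 4 and 0.10, -0.11, -0.23 and 0.18 in wild-type arrays 1 to 4. The highest and the lowest medians were thus both in the wild-type group, and the 4 Ts65Dn arrays lay between them. The 698 genes of like level had medians of 0.05, 0.06, 0.06 and 0.04 in Ts65Dn and of 0.04, -0.11, -0.17 and 0.06 in wild type. They too were low on wild-type arrays 2 and 3. Single members departed from the class median, such as Acads, which was highest on wild-type array 3, at 6.04. Wild-type array 4 was the highest array for 10 of 14 genes, or 71.43%, against 21.78% of genes of like level and 8.12% of all genes. Wild-type array 3 was the lowest for 9 of 14, against 45.7% of genes of like level. Genes of 1 array share that array, so these counts are not independent of each other.

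Leaving out wild-type arrays 2 and 3 left wild-type arrays 1 and 4, on which the class median was highest. Then 14 of 14 beta-oxidation fold changes were below 0, with a median of -0.09 and a lowest value of -0.38 for Eci1. By limma 0 of the 14 were called, beside 1 of all 19938 genes. Of genes of like level, 49.28% were below 0 in that comparison, with a median of 0.00. Over all 32 members, 22 were below 0 and 10 above. At an unadjusted limma p under 0.05 there were 2 of 32 members, Plin2 and Eci1, beside 16.8% of all genes.

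**Figure D3:**
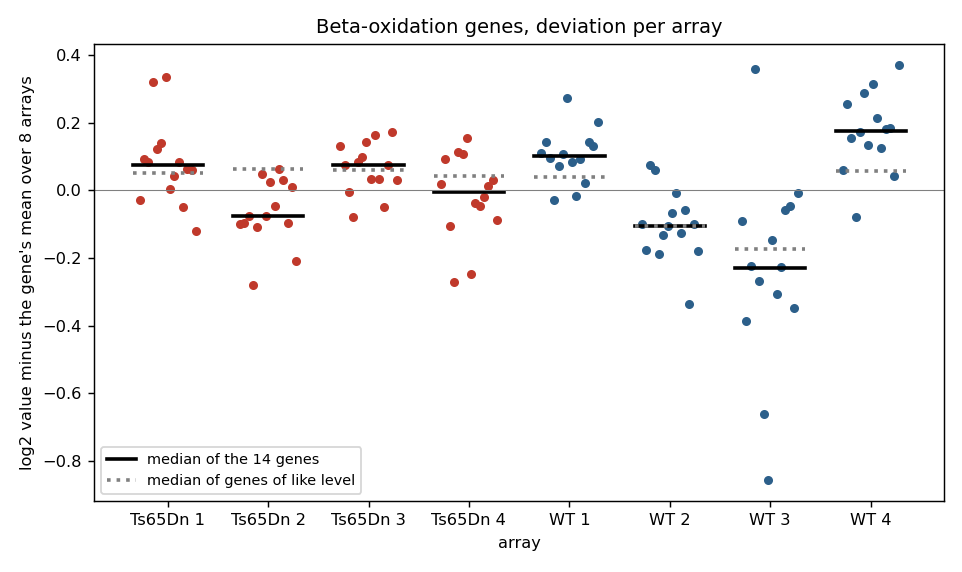
Log2 value minus the gene's mean over the 8 arrays (y axis) for the 14 beta-oxidation genes (points) in each array (x axis), with their median (black line) and the median of the 698 genes of like level (dotted line). Wild-type (WT) array 3 has the lowest median, -0.23, and wild-type array 4 the highest, 0.18.

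Of the regulators, Ppara, the receptor that drives fatty acid oxidation in muscle and liver, had a log2 fold change of -0.04 with an interval from -0.50 to 0.41 (adjusted p = 0.895 by limma). Ppard, its relative that is abundant in oxidative muscle, was at 5.21, 5.36, 5.52 and 5.63 in Ts65Dn and at 5.70, 5.81, 5.89 and 5.34 in wild type. In 3 of the wild-type arrays it lay above every Ts65Dn array, and wild-type array 4 lay among the Ts65Dn values. The log2 fold change was -0.26 with an interval from -0.59 to 0.08 (adjusted p = 0.237 by limma), and -0.09 without wild-type arrays 2 and 3. The level-matched value of -0.30 had an unadjusted limma p of 0.0498 and an adjusted p of 0.239.

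Ucp3, an inner membrane protein of muscle whose message is known to follow fatty acid supply, was the most variable member. It was at 6.98, 5.89, 7.22 and 7.57 in Ts65Dn and at 5.46, 6.80, 6.85 and 6.83 in wild type. In each group 1 array was low, Ts65Dn array 2 and wild-type array 1. On the log2 scale the fold change was 0.43 with an interval from -0.43 to 1.29 (adjusted p = 0.433 by limma), was 0.09 without wild-type array 1 and was 0.77 without Ts65Dn array 2. Its promoter window, chr7:100472741-100473040 on the plus strand of GRCm38.p6 from RefSeq, is shown because it is the only window among the members with 2 core sites before the start, and it too was chosen after its values were seen. Capitals mark them, and their first bases are at positions -149 and -44.
Ucp3: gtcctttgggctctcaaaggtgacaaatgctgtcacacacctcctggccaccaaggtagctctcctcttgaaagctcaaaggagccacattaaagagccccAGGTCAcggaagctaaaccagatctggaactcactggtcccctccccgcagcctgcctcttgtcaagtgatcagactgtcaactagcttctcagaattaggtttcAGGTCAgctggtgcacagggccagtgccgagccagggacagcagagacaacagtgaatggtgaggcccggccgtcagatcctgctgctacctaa

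With level matching, 5 of 32 members had an unadjusted limma p under 0.05, beside 20.9% of all genes. They were Angptl4 and Cpt1a, with values above 0, beside 11.4% of all genes in that direction, and Eci1, Echs1 and Ppard, with values below 0, beside 9.50%. After adjustment 0 of 32 were called, and of all genes 0.471%.

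A list of 125 other genes of fatty acid handling gave calls at the rate of all genes. Of 116 measured, 4 were called higher and 2 lower in Ts65Dn, or 5.17% against 5.26% of all genes. As for all genes, these calls lay just under the threshold. None of the 116 is carried in 3 copies. Dgat1, which adds the last fatty acid to triglyceride, was at 6.12, 6.48, 6.61 and 6.21 in Ts65Dn and at 5.99, 5.41, 5.26 and 5.73 in wild type, a log2 fold change of 0.76 (adjusted p = 0.0470 by limma). Pdk4, the kinase that shuts pyruvate dehydrogenase and so spares glucose, was at 11.46, 10.90, 11.31 and 11.29 in Ts65Dn and at 10.67, 10.33, 10.73 and 10.75 in wild type, a log2 fold change of 0.62 (adjusted p = 0.0475 by limma). For both genes every Ts65Dn array was above every wild-type array, while 22.7% of all genes had groups that did not overlap. Both were named because they passed on these same values, so the separation adds no support.

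The orphan nuclear receptor Esrrg, an activator of oxidative genes, rose by 0.66 on the log2 scale (adjusted p = 0.0456 by limma), and Acss1, the mitochondrial acetyl-CoA synthetase, by 0.65 (adjusted p = 0.0456 by limma). Srebf1, a transcription factor of lipid synthesis, was at 4.68, 4.86, 4.92 and 4.84 in Ts65Dn and at 5.42, 5.39, 5.36 and 5.25 in wild type, and fell by 0.53 (adjusted p = 0.0456 by limma). Angptl8, a partner of the lipase inhibitors, fell by 0.62 (adjusted p = 0.0484 by limma). Cav1, of caveolae, and Acad11, an acyl-CoA dehydrogenase, had the next smallest p, with log2 fold changes of 0.53 and 0.73 and limma adjusted p-values of 0.0520 and 0.0530. With level matching, quantile normalization or wild-type arrays 2 and 3 left out, none of the 6 calls was kept by limma. Of all 19938 genes, 94, 1 and 1 were called in those settings. Nor was any kept when 1 of the 4 Ts65Dn arrays, wild-type array 2 or wild-type array 3 was left out. Those fits called 0 or 1 of all genes, so the loss was not particular to these 6. Without wild-type array 1 or wild-type array 4 all 6 were kept, and 2865 and 2422 of all genes were called. The level-matched log2 fold changes were 0.67 for Dgat1, 0.55 for Pdk4, 0.49 for Acss1, 0.38 for Esrrg, -0.31 for Srebf1 and -0.46 for Angptl8.

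**Figure D4:**
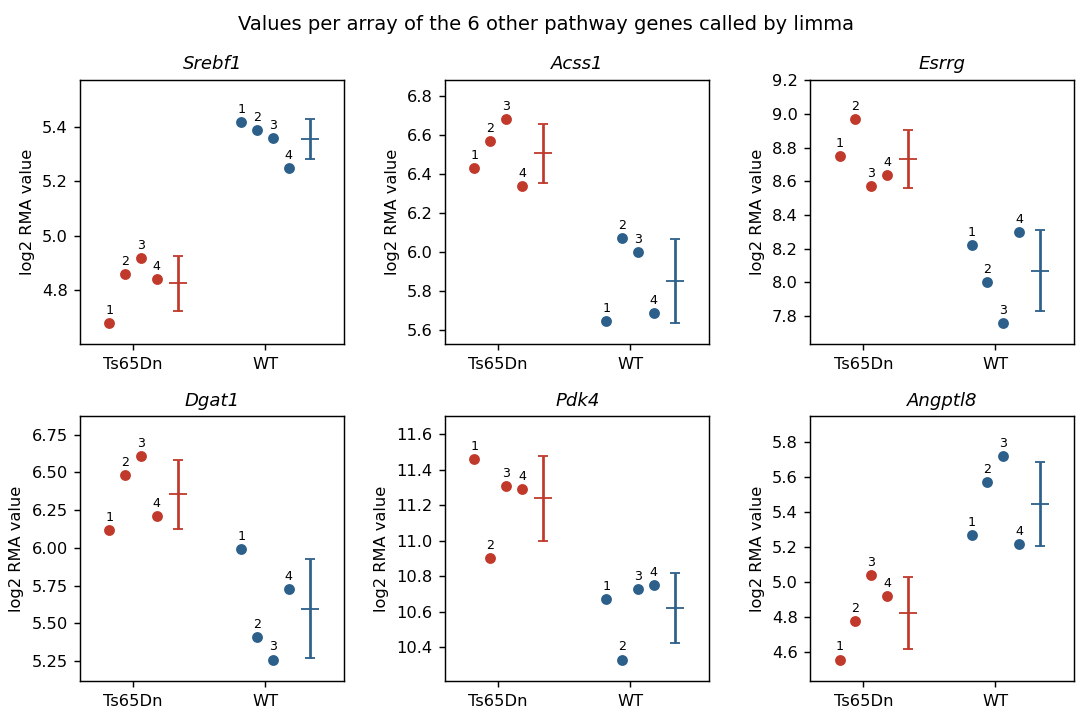
Log2 RMA values (y axis) of the 6 other pathway genes called by limma in each Ts65Dn and wild-type (WT) array, numbered by replicate, with the mean and SD of each group (n = 4) at the side. In each panel the 2 groups are apart, with Srebf1 and Angptl8 lower and Acss1, Esrrg, Dgat1 and Pdk4 higher in Ts65Dn. The genes were chosen because they passed on these values, and 22.7% of all genes have groups that do not overlap.

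By class, the calls were 1 of 22 droplet and triglyceride genes, 1 of 19 uptake and activation genes, 1 of 21 mitochondrial genes and 3 of 21 regulators, with 0 of 16 carnitine and malonyl-CoA genes and 0 of 17 peroxisomal genes. Of all genes 5.26% were called, and lists of this size cannot be told apart by so few calls. At an unadjusted limma p under 0.05 there were 35 of the 116 genes, beside 34.8% of all genes. The lists held 5, 6, 5, 10, 6 and 3 of them in that order.

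Markers of the tissue and of other cells were read on the same arrays. The muscle genes Acta1 and Ckm had log2 fold changes of 0.13 and 0.04, and the slow and fast myosins Myh7 and Myh2 0.26 and 0.12, with 0 of 8 slow-fibre and 0 of 8 fast-fibre genes called by limma and 0 of each at an unadjusted p under 0.05. All 8 muscle genes were above 0, with a median of 0.17, and 0.15 after level matching. Of these 8, 0 were called and 1 had an unadjusted limma p under 0.05, Des (0.32), named after its values were seen. Of all genes 5.26% were called and 34.8% had an unadjusted p under 0.05. In whole muscle, fewer cells of a type and less RNA per cell cannot be told apart. For fat cells, which also hold Fabp4, Lpl, Lipe and Plin2, 0 of 9 measured markers were called by limma and 3 had an unadjusted p under 0.05, beside 34.8% of all genes. Their mean log2 level ran from 4.26 to 4.72 in Ts65Dn and from 4.63 to 5.05 in wild type. The median log2 fold change of the 9 markers was -0.34, and -0.13 after level matching. Adipoq had the highest group means of the list, 6.27 in Ts65Dn and 6.04 in wild type. Some markers gave little signal. Acvr1c (2.76 and 3.17) and Ucp1 (3.42 and 3.59) lay below the median of every array. Whether the list follows fat content was not tested. Adipoq, the fat cell hormone adiponectin, was highest in Ts65Dn array 1, at 7.22, and in wild-type array 3, at 7.13, and lowest in Ts65Dn array 2, at 5.33. Of the 3 with an unadjusted p under 0.05, Plin1, Acvr1c and Trarg1, each had a fold change below 0. They, too, were named after their values were seen. Their level-matched log2 fold changes were -0.13, -0.20 and -0.19. In the list 2 of 9 markers were above 0, Adipoq with 0.23 and Pparg with 0.07.

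For endothelium, which also holds Cd36 and Fabp4, 2 of 10 markers were called higher, beside 2.32% of all genes. They were Kdr (0.99) and Emcn (1.18), with limma adjusted p-values of 0.0449 and 0.0456, named after their values were seen. At an unadjusted limma p under 0.05 there were 4 of 10, beside 34.8% of all genes. The median log2 fold change of the list was 0.33, and 0.31 after level matching. In the main comparison 7 of 10 were above 0, while Cldn5 (-0.30) and Tie1 (-0.04) were below 0. The mean level of the list ran from 5.74 to 6.08 in Ts65Dn and from 5.37 to 5.66 in wild type, and Pecam1 had a log2 fold change of 0.58 (adjusted p = 0.188 by limma). Gpihbp1, the anchor of lipoprotein lipase, had one of -0.04. Of 10 macrophage markers only Cd68 was called, with a log2 fold change of 2.39, beside 5.26% of all genes called. The list mean, with Cd68 in it, ran from 4.89 to 5.48 in Ts65Dn against 4.64 to 4.88 in wild type. The median log2 fold change of the 10 macrophage markers was 0.07, with 6 above 0, and the level-matched median was 0.20. The part of these cells in the values of Plin2, Cd36 or Fabp4 was not tested.

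Ts65Dn array 4 differed from the others in a fast myosin. Myh4, the heavy chain of the fastest fibres, was at 10.52 there and between 5.89 and 6.76 in the other 7 arrays, and was singled out after its values were seen. The same array was the highest of all 8 for 6 of 32 members, Pnpla2, Cpt1a, Cpt2, Acacb, Mlycd and Ucp3, or 18.75%, against 17.16% of genes of like level and 10.66% of all genes. Without it the log2 fold changes were 0.31 for Pnpla2, 0.24 for Cpt1a, 0.30 for Cpt2, 0.21 for Acacb, 0.21 for Ucp3 and 0.43 for Plin2. Whether fibre makeup had a part in these values was not tested.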

How the data were processed

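Expression was measured on 1 array per biological replicate. The deposited values are log2 values, a scale read from their range, and the authors used Affymetrix Expression Console 1.1 and RMA at gene level, per the submitters' processing notes. Which genome build and which annotation they used is not given in the sources used here. Arrays were read from this table alone. The table holds 35556 probe sets, 21789 with 1 gene symbol, 1621 with several and 12146 with none. For 21698 of the single symbols the current name came, by Entrez identifier, from the RefSeq gene table of GRCm38.p6, which was used for names and gene order. Promoter windows and their coordinates came from a RefSeq promoter table of the same build.

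A linear model with group as the only term was fitted to the 19938 genes (limma 3.58.1, lmFit then eBayes; R 4.3.3), with two-sided p-values adjusted by Benjamini-Hochberg at 0.05. Intervals are limma's 95% intervals, not adjusted for many genes. The fit was tested on simulated data. Python 3.11.15, pandas 2.3.3 and matplotlib 3.10.9 were used for tables and plots. With 4 arrays a group, their number limits the precision.

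All 34 members are named, with the other pathway genes that passed and the 8 with the smallest p, and 7 marker genes. Other markers named, and the single core site searched in promoters, were chosen after values were seen. The members and lists were chosen with earlier results of these data known, so no list test was made. Replicate numbers were not taken as pairs in the main comparison. Alternatives were quantile normalization, median centring, level matching, the mean of probe sets, a replicate block, a filter on dim genes, adjustment over all probe sets, and leaving out arrays.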

Additional observations from a re-analysis of the deposited data

Results flagged for a closer look

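In 5 of 94 groups of 4 arrays 1 array lay far from the other 3, with a gap to its nearest neighbour, as a share of the group's range, above Dixon's 95% critical value. Chance alone gives about 1 in 20 groups, so this number is near what chance gives. Ucp3 in wild type had a gap of 0.968 of the range, from wild-type array 1, at 5.46. Plin5 in wild type had 0.864, from wild-type array 3, at 5.87. Acadl in Ts65Dn had 0.899 and Hadha in Ts65Dn 0.844, both from the low value of Ts65Dn array 2, at 10.56 and 10.57, and Echs1 in Ts65Dn had 0.885, from Ts65Dn array 4, at 8.65.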

How the results depend on the processing

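Of 32 members, 10 kept the sign of their fold change under every alternative and 22 changed it under at least 1. None was called by limma under any alternative except Plin2 with median centring, where the members called higher numbered 1. Most alternatives called almost no gene at all, so they could hardly call a member. Of all 19938 genes, the replicate block and adjustment over all probe sets called 0. Quantile normalization and leaving out both wild-type arrays 2 and 3 called 1 each, level matching 94 and median centring 1008. Median centring, which moves every fold change by the same amount, gave log2 fold changes of 0.0138 for Eci1, 0.0512 for Acads, 0.11 for Echs1, 0.15 for Acadm, 0.16 for Etfb and 0.16 for Ppara, and medians of 0.29 for the members, 0.29 for uptake, 0.45 for lipid droplet, 0.45 for the carnitine shuttle, 0.25 for beta-oxidation and 0.16 for regulators. Level matching gave -0.0138 for Acaa2, -0.0159 for Lpl, -0.0302 for Ckm, -0.0654 for Acadvl, -0.0659 for Mlycd, -0.0960 for Fabp4, -0.11 for Etfdh, -0.11 for Acacb and -0.13 for Slc25a20, and medians of -0.0659 for the carnitine shuttle and -0.24 for regulators. Quantile normalization gave -0.0215 for Ckm, -0.0276 for Acacb, -0.0489 for Acadvl, -0.0601 for Fabp4, -0.0763 for Etfdh, -0.11 for Mlycd and -0.12 for Slc25a20, and medians of -0.0276 for the carnitine shuttle and -0.19 for regulators.

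With wild-type arrays 2 and 3 left out, log2 fold changes were -0.0156 for Decr1, -0.0422 for Fabp3, -0.0670 for Hadha, -0.0679 for Hadh, -0.0683 for Acaa2, -0.0699 for Fabp4, -0.0784 for Etfa, -0.0821 for Acadvl, -0.0947 for Slc25a20, -0.0988 for Hadhb, -0.12 for Lpl, and -0.15 for each of Cd36, Etfdh and Acadl. The medians were -0.0681 for the members, -0.0561 for uptake, 0.0871 for lipid droplet and 0.10 for the carnitine shuttle. Beyond the arrays left out, the cause was not tested.

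Leaving out single arrays gave ranges of -0.0434 to 0.0822 for Fabp4, -0.0571 to 0.0596 for Lpl, -0.0485 to 0.22 for Slc25a20, -0.0272 to 0.18 for Mlycd, -0.0312 to 0.0475 for Acadvl, -0.0301 to 0.18 for Acadl, -0.0343 to 0.14 for Acaa2, -0.0004 to 0.12 for Etfa, -0.0732 to 0.0079 for Etfb, -0.0814 to 0.0922 for Etfdh, -0.17 to 0.12 for Ppara and so for the regulators' median, -0.0827 to 0.60 for Adipoq and -0.0069 to 0.11 for Ckm. The median of the regulators was 0.12 without Ts65Dn array 3.

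The other genes of the pathway called higher, 4 in the main comparison, numbered 9 with median centring and 2 among genes above the median level, and those called lower, 2 in the main comparison, 0 and 1. Both counts were 0 with quantile normalization, level matching, the replicate block, all probe sets adjusted together and without both wild-type arrays 2 and 3. Over single arrays left out they ran from 0 to 14 and from 0 to 2, with 10 higher without wild-type array 1, 14 without wild-type array 4 and 0 without any of the other 6. The correlation of deviations of same-numbered arrays was 0.03, 0.01, 0.09 and 0.07. Same-numbered arrays thus shared little deviation, which cannot tell whether they were paired. The replicate block left 0 of all genes called, as against 1049 without it. Over all genes, 76 were called higher and 18 lower with level matching and 1 higher with quantile normalization. Leaving out single arrays gave 0 or 1 call, except for 2865 without wild-type array 1 and 2422 without wild-type array 4.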
